A study of Mus musculus with 18 samples.

Results

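The bone morphogenetic protein (BMP) pathway was described in mouse back skin through 10 genes, taken by their symbols from the 32285 genes of 10 single-cell RNA libraries. They were the ligand genes Bmp2, Bmp4 and Bmp7, the antagonist gene Grem1, the receptor gene Bmpr1a, the inhibitory Smad genes Smad6 and Smad7, and the target genes Id1, Id2 and Id3. All 10 symbols were found in all 10 libraries. Coordinates below are those of build GRCm38 in the GENCODE M21 annotation, whose gene identifiers match the deposited ones. All are protein-coding genes.

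BMP ligands are secreted dimers of the TGF-beta superfamily. They bring together type I receptors such as BMPR1A and type II receptors, which phosphorylate SMAD1, SMAD5 and SMAD9, and these enter the nucleus with SMAD4. The ID genes are among the most direct targets, and they encode helix-loop-helix proteins that have no DNA-binding region and hold basic helix-loop-helix factors away from DNA. SMAD6 and SMAD7 are themselves induced by the pathway and damp it, while gremlin 1, the product of Grem1, binds ligands outside the cell. In skin, BMP signals keep hair follicle stem cells of the bulge at rest, and the dermal papilla at the base of the follicle is a known source of BMP ligands and of their antagonists.

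The study asked how skin responds when it is stretched by a tissue expander. Every mouse, controls included, had an incision in the back skin near the tail and a path opened under the skin to the neck with forceps. Expanded mice (EXP) then received a hydrogel that swells, held near the neck by stitches, and control mice (CTRL) received none. Samples were collected on day 1, 2 or 4 after surgery, and DAPI-negative live cells were sorted from the digested tissue. Each library was a pool of mice of 1 arm. Day 1 and day 2 had a library of each arm in each of sequencing rounds 1 and 2, and day 4 had a library of each arm from round 1 alone, which made 5 control and 5 expanded libraries. Strain and age are not given in the sources used here, no unoperated skin was compared, and the single day 4 pair has no replicate.

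The libraries held 17726739 to 75470722 gene UMIs, with a median of 6327 to 12766 UMIs per cell. After filtering and removal of doublets, 45533 cells remained, 28564 from controls and 16969 from expanded skin. Of 41 clusters, 35 were named from marker genes, and the 6 unnamed clusters held 4089 cells. The largest of these, cluster 3 with 2418 cells, 18.8% of them expanded, had Cd209a, Mgl2 and Ccl17 among its leading genes. It scored equally for dendritic or Langerhans and for macrophage or monocyte markers, and neither class includes it. At most 18 cell barcodes were shared between any pair of libraries. UMIs were summed per cell class and library, and a level is a gene's count scaled to the total of that sum (CPM). Sums of at least 20 cells were used. Fibroblast markers varied most between libraries, and they also differed between the arms. The 8 markers summed to 60706 to 173952 CPM in control and 25453 to 67739 CPM in expanded fibroblast-like cells, highest for controls of day 1 round 1. In each pair of the same day and round the expanded library was the lower. In macrophage or monocyte-like cells the same list reached 5742 CPM in the expanded library of day 1 round 1, and in mural-like cells 21267 CPM in the day 1 round 1 controls. Values for single libraries follow the order day 1 round 1, day 1 round 2, day 2 round 1, day 2 round 2 and day 4 round 1.

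Dermal papilla-like cells had the highest Bmp4 and Bmp7, fibroblast-like cells the highest Grem1, and bulge keratinocyte-like cells the highest Id1. Mural-like cells, which wrap blood vessels, had the highest Bmp2, Bmpr1a and Id3. T or innate lymphoid-like cells had the highest Id2 and Smad7. These levels are a description of 16 classes without a test. When every cell was thinned to 2000 UMIs and classes were ordered by the share of cells with a UMI, the top class was the same for 7 of the 10 genes. The exceptions were Bmpr1a, Id2 and Smad6.

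**Figure D1:**
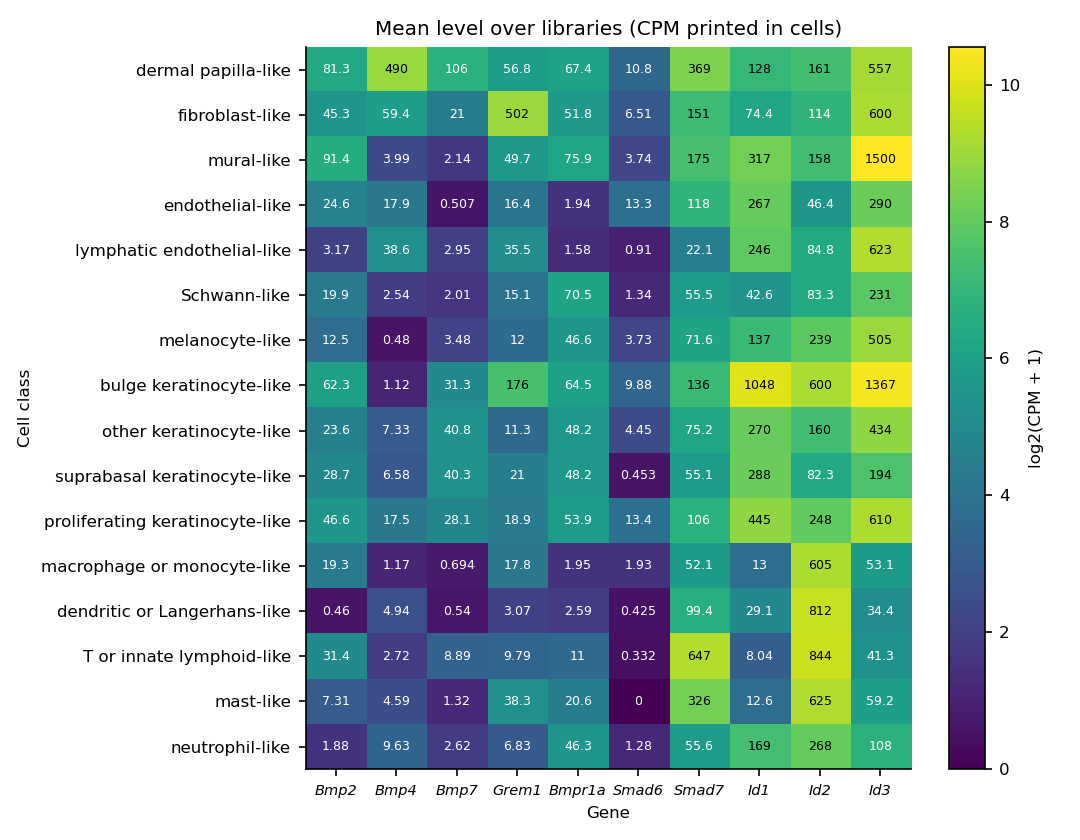
Mean CPM over libraries of each of the 10 genes (columns) in 16 cell classes (rows), with the mean printed in each cell and the colour scaled on log2(CPM + 1). Bmp4 in dermal papilla-like cells (489.9 CPM), Grem1 in fibroblast-like cells (502 CPM) and Id1 in bulge keratinocyte-like cells (1048 CPM) stand out in their columns.

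Expanded and control skin were compared in the 11 classes with at least 4 libraries per arm, by edgeR's quasi-likelihood test with Benjamini-Hochberg adjustment over all genes of the class and with day in the model. Of 75 gene-by-class pairs tested, 11 passed an adjusted p of 0.05. In fibroblast-like cells 2 of 10 genes rose (Id1 and Bmp7) and none fell, where 30.9% of all genes passed, 14.8% by rising. This depended on the model. With 1 term for each pair of libraries of the same day and round in place of day, 5 genes passed there. The added calls were Bmp2, Bmp4 and Bmpr1a, all lower. The share of all genes that passed in that fit is not given here. In macrophage or monocyte-like cells Id1 and Smad7 rose and Bmp2 fell, 3 of 6 tested, against 20.7% of all genes (10.2% higher and 10.5% lower). Mural-like cells had 2 of 7 genes lower (Bmp2 and Id3), against 19.1% of all genes (11.2% lower). Id1 rose in endothelial-like cells, 1 of 8 tested against 12.1% (5.54% higher), and in lymphatic endothelial-like cells, 1 of 5 against 11.9% (6.11% higher). Bmp4 fell in other keratinocyte-like cells, 1 of 9 against 18.3% (9.63% lower). These last are 1 keratinocyte cluster whose 10 leading genes named it neither bulge nor suprabasal nor proliferating. The cluster still had 7 of 8 proliferation markers raised, as against 8 in proliferating keratinocyte-like cells. Id3 rose in melanocyte-like cells, 1 of 5 against 0.913% (0.383% higher).

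In the remaining 4 classes edgeR's quasi-likelihood test called none of the genes. They were bulge keratinocyte-like cells with 9 tested (1.47% of all genes), T or innate lymphoid-like cells with 7 (0.793%), Schwann-like cells with 5 (0.397%) and dendritic or Langerhans-like cells with 4 (3.82%). At an unadjusted p of 0.05 these classes had 0, 1, 1 and 0 genes, and DESeq2 called 0 in each. In fibroblast-like cells the median log2 fold change of the 10 genes was -0.17, against 0.017 over all genes tested. The TMM scaling factors of the fit differed between the arms, expanded minus control, by 0.25 (log2) in dendritic or Langerhans-like, 0.23 in fibroblast-like and at most 0.12 in the other classes. Fold changes are relative to those factors, and the printed CPM are not scaled by them. Nothing in the labels separates the mice of a pool beyond hashtags, so the p-values measure the spread between these pooled libraries.

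**Figure D2:**
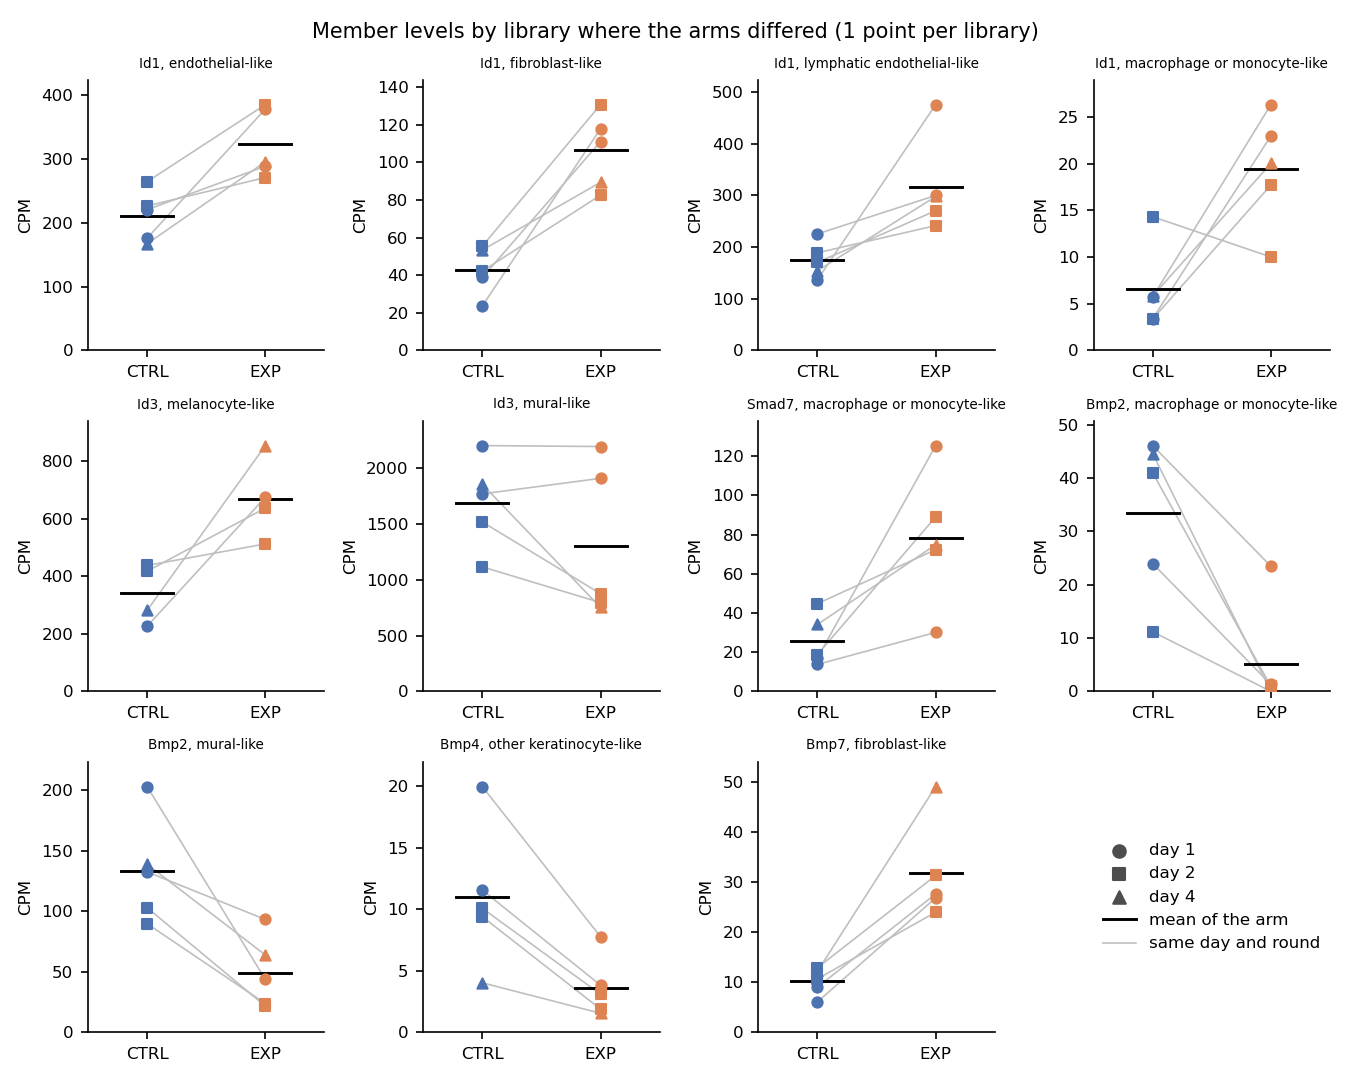
CPM per library of the 11 gene-by-class pairs past an adjusted p of 0.05, control on the left and expanded on the right of each panel, with 1 marker shape per day and a line joining the libraries of the same day and round. Both fibroblast-like panels have every expanded library above every control library, while the mural-like Id3 panel overlaps on day 1.

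Bmp2 (chr2:133552159-133562885, plus strand) encodes a ligand first known for inducing bone. It was highest in mural-like cells, at 91.4 ± 56.8 (SD, n = 10) CPM. Dermal papilla-like cells had 81.3 ± 23.2 (SD, n = 7), bulge keratinocyte-like cells 62.3 ± 22.6 (SD, n = 9) and fibroblast-like cells 45.3 ± 12.4 (SD, n = 10) CPM. Neighbours in this order differed by less than the larger of their SDs, the measure used for all such steps here. In T or innate lymphoid-like cells, at 31.4 ± 12.3 (SD, n = 10) CPM, the gene sat in cluster 18, led by Il17a and Il17f. That cluster had 108 (range 87.3 to 124, n = 5) CPM in controls and 114 (range 34.3 to 182, n = 5) CPM in expanded skin. The other clusters of the class with a value had at most 4.68 CPM in either arm. Dendritic or Langerhans-like cells were lowest of the 16 classes, at 0.46 ± 0.803 (SD, n = 10) CPM.

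In mural-like cells Bmp2 stood at 133, 203, 89.8, 103 and 139 CPM in the control libraries and at 93.2, 43.7, 23.8, 21.8 and 63.9 CPM in the expanded ones. The expanded library was the lower of each of the 5 same-day, same-round pairs, and across days the groups overlapped at 1 expanded library. Bmp2 fell, with a log2 fold change of -1.62 ± 0.21 (SE) (by edgeR, adjusted p = 0.000291), and the call held without each library in turn (-1.84 to -1.49). Fibroblast markers in these sums ranged over 599 to 21267 CPM in controls and 1011 to 8313 CPM in expanded skin. Scaled by the ratio of Bmp2 to those markers in fibroblast-like cells of the same library, they amount to 0.333 to 7.03 and 1.4 to 6.04 CPM of Bmp2, and their part in the fall was not tested. At Leiden resolution 2 mural-like cells split into a cluster led by Rgs5 (994 cells, 28.4% expanded) and a cluster led by Actg2 and Cnn1 (109 cells, 49.5% expanded). The part of this mix in the mural-like values was not tested for any gene.

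Macrophage or monocyte-like cells held Bmp2 at 46.1, 24, 41, 11.2 and 44.6 CPM in controls and at 23.5, 1.3, 0.946, 0 and 0 CPM in expanded skin. These rest on 651 and 64 UMIs. The zeros of day 2 round 2 and day 4 allow up to 0.638 and 0.488 CPM, at 3 counts per library. Expanded libraries were low except that of day 1 round 1, which lay within the control range. The log2 fold change was -3.81 ± 1.07 (SE) (by edgeR, adjusted p = 0.0364). The call held in 3 of 10 fits that left out a library and was lost without the control libraries of day 1 round 1, day 2 round 1 and day 4 round 1 and the expanded libraries of day 1 round 2, day 2 round 1, day 2 round 2 and day 4 round 1, with a range of -5.68 to -3.21 and adjusted p of 0.00236 to 0.0952. Without the expanded library of day 1 round 1 it was -5.68 (adjusted p = 0.00236).

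Different clusters made up this class in the arms. Cluster 1, led by Chil3, Ly6c2 and Arg1, held 27.7% of the control cells and 93.3% of the expanded ones. Cluster 4, led by Cd209f and C1qc, held 72.3% and 6.7%. Bmp2 belonged to cluster 4, with 43.1 (range 26.7 to 63.2, n = 5) CPM in controls and 12.3 (range 0 to 30.9, n = 3) in expanded skin, against 1.19 and 3.76 CPM in cluster 1. The part of the changed mix of clusters in the class values was not tested for Bmp2.

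In fibroblast-like cells Bmp2 stood at 57.5, 59.7, 54.8, 33.8 and 43.2 CPM in controls and 49.2, 54.7, 39.4, 20.3 and 40.5 CPM in expanded skin. The groups overlapped, and the log2 fold change of -0.52 ± 0.20 (SE) missed the threshold (by edgeR, adjusted p = 0.0723). It passed in a fit with a replicate block, 1 term for each pair of libraries of the same day and round (-0.54, adjusted p = 0.00285). The shares of all Bmp2 UMIs shifted with the cells recovered: fibroblast-like cells gave 67.2% in controls and 44.3% in expanded skin, and bulge keratinocyte-like cells 4.37% and 22.5%. Bmp2 did not pass the test in bulge keratinocyte-like (0.0075), endothelial-like (0.17), T or innate lymphoid-like (-0.45) or other keratinocyte-like cells (-1.31, adjusted p = 0.228).

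Bmp4 (chr14:46383520-46390669, minus strand) encodes a ligand that, in skin, comes mainly from the dermis. Dermal papilla-like cells stood far above the rest at 489.9 ± 119 (SD, n = 7) CPM. Fibroblast-like cells followed at 59.4 ± 24.2 (SD, n = 10), lymphatic endothelial-like cells at 38.6 ± 12.6 (SD, n = 10) and endothelial-like cells at 17.9 ± 5.73 (SD, n = 10) CPM. The first and the third step in this order exceeded the larger SD, and the second did not. Melanocyte-like cells were lowest, at 0.48 ± 0.897 (SD, n = 8) CPM. The thinned share of cells with a Bmp4 UMI was 50.8% in control and 47.9% in expanded dermal papilla-like cells (unthinned 69.3% and 66.5%). In T or innate lymphoid-like cells, which should lack it, the thinned share was 0.409% and 0.106%. Fibroblast-like cells gave 75.6% of all Bmp4 UMIs in controls and 59% in expanded skin, and dermal papilla-like cells 17.5% and 28.8%.

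Bmp4 fell in other keratinocyte-like cells, from a low level. Controls had 11.6, 19.99, 10.1, 9.42 and 4.03 CPM and expanded libraries 3.84, 7.78, 3.11, 1.89 and 1.56 CPM. Expanded libraries were lower in all 5 pairs, although across days the groups overlapped. Its fitted log2 fold change was -1.61 ± 0.31 (SE) (by edgeR, adjusted p = 0.00378), and -1.93 to -1.4 without each library in turn, past the threshold each time. Fibroblast markers summed to 444 to 7443 CPM in these control sums and 17 to 200.5 CPM in the expanded ones. Scaled to Bmp4, they amount to 0.249 to 3.61 and 0.0279 to 0.301 CPM. The same scaling from dermal papilla markers gave 1.55 to 4.73 CPM over 3 control and 0.609 to 5.15 CPM over 4 expanded libraries. The fibroblast amounts lay below the level in every library. Relative to the level, the dermal papilla amounts were smallest in the day 1 round 2 controls (1.55 beside 19.99 CPM). They were largest in the expanded day 4 library (1.45 beside 1.56 CPM). The part of either in the fall was not tested.

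In fibroblast-like cells Bmp4 stood at 84.5, 67.9, 72.6, 50.9 and 40.9 CPM in controls and 102, 72.5, 34.9, 41.6 and 26.1 CPM in expanded skin. The log2 fold change of -0.55 ± 0.19 (SE) missed the threshold (by edgeR, adjusted p = 0.0529) and passed with the replicate block (-0.54, adjusted p = 0.0402). In lymphatic endothelial-like cells the direction was the opposite, with 29.2, 29.6, 37.9, 22.6 and 28.3 CPM in controls and 41.8, 56.2, 31.8, 58.1 and 50.6 CPM in expanded skin. Only the expanded library of day 2 round 1 lay within the control range. The log2 fold change of 0.75 ± 0.25 (SE) missed the threshold (by edgeR, adjusted p = 0.0515) and passed with the block (0.78, adjusted p = 0.0349). The difference between these fibroblast-like and lymphatic endothelial-like effects was 1.16 ± 0.37 (SE) in a joint fit (adjusted p = 0.123). In dermal papilla-like cells, with too few libraries for a test, Bmp4 ranged over 305 to 511 CPM in 3 control and 395 to 676 CPM in 4 expanded libraries.

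Bmp7 (chr2:172868012-172940321, minus strand) encodes a ligand of the BMP5/6/7 branch. It was highest in dermal papilla-like cells, at 106 ± 28.3 (SD, n = 7) CPM. Other keratinocyte-like cells had 40.8 ± 13.9 (SD, n = 10), suprabasal keratinocyte-like cells 40.3 ± 8.32 (SD, n = 6) and bulge keratinocyte-like cells 31.3 ± 11.7 (SD, n = 9) CPM, which differed by less than their SDs. Fibroblast-like cells had 21 ± 13.3 (SD, n = 10) CPM and endothelial-like cells, the lowest, 0.507 ± 0.522 (SD, n = 10) CPM.

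Bmp7 rose in fibroblast-like cells. Control libraries had 6.1, 9.05, 10.7, 12.9 and 12.2 CPM and expanded libraries 26.9, 27.7, 24, 31.4 and 49.1 CPM. Every expanded library lay above every control library, and day 4 was the highest. In the model this was a log2 fold change of 1.42 ± 0.14 (SE) (by edgeR, adjusted p = 0.000207), and the call held without each library in turn (1.32 to 1.52). The thinned share of fibroblast-like cells with a Bmp7 UMI was 1.99% in controls and 5.83% in expanded skin (unthinned 8.06% and 23.9%). The 8 dermal papilla markers, of which 6 to 8 of 8 were detected, summed to 29.9 to 104 CPM in control and 84 to 380.2 CPM in expanded fibroblast-like cells. Scaled to Bmp7 they amount to 1.65 to 9.46 CPM over 3 control and 9.17 to 28.6 CPM over 4 expanded libraries, and their part in the rise was not tested. Basal keratinocyte markers scaled the same way gave at most 0.74 CPM.

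In other keratinocyte-like cells Bmp7 stood at 25.8, 26.1, 23.6, 50.1 and 30.5 CPM in controls and 52.3, 45.4, 38.3, 62.5 and 53.9 CPM in expanded skin. Expanded libraries were the higher of every pair, and 1 control library reached into their range. The log2 fold change of 0.54 ± 0.18 (SE) missed the threshold (by edgeR, adjusted p = 0.0506) and passed with the replicate block (0.64, adjusted p = 0.00802). This effect was smaller than that in fibroblast-like cells by -0.86 ± 0.22 (SE) (by edgeR, adjusted p = 0.032, where 4.35% of genes in the joint fit passed). That difference held in 4 of 10 fits without a library and was lost without the control libraries of day 1 round 1, day 1 round 2 and day 2 round 2 and the expanded libraries of day 1 round 2, day 2 round 1 and day 4 round 1. In suprabasal keratinocyte-like cells, with 3 libraries per arm and no test, Bmp7 had 28.8 to 37.4 CPM in controls and 40.6 to 51.7 CPM in expanded skin. The change on the log2 scale was 0.43 ± 0.20 (SE) in bulge keratinocyte-like cells (by edgeR, adjusted p = 0.262). Of all Bmp7 UMIs, fibroblast-like cells gave 48% in controls and 39.1% in expanded skin, and other keratinocyte-like cells 10.3% and 24.8%.

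Grem1 (chr2:113746164-113758646, minus strand) encodes the secreted antagonist gremlin 1. Since Grem1 and Bmp4 moved in opposite directions in 1 cluster of fibroblast-like cells, described further on, the 250 bases before their transcription starts are shown here, from RefSeq on build GRCm38.p6. The Grem1 stretch is chr2:113758649-113758898 and the Bmp4 stretch chr14:46390670-46390919, both on the minus strand and printed 5′ to 3′. Capitals mark GGCGCC, a palindrome that binds SMAD1 and SMAD5 in BMP targets. It was searched on both strands and was present in 9.59% of 32851 promoters of the same length, which were not matched for G and C content.
Grem1: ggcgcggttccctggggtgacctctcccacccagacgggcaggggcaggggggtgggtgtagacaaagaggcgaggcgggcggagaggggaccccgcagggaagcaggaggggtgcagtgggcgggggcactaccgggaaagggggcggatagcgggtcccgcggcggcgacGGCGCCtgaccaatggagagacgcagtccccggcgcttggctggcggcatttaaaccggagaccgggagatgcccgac
Bmp4: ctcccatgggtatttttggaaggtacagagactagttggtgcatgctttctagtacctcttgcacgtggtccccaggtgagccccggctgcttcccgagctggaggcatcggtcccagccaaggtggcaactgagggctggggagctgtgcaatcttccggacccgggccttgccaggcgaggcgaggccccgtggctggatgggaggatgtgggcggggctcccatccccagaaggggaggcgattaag
The Grem1 stretch has 1 such match, starting 78 bases before the transcription start, and the letters are not in the Bmp4 stretch. The G and C content was 72% and 63.2%.

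Fibroblast-like cells had the highest Grem1, at 502 ± 111 (SD, n = 10) CPM, followed by bulge keratinocyte-like cells at 176 ± 62.1 (SD, n = 9) CPM. That step exceeded the SDs. Dermal papilla-like cells had 56.8 ± 36 (SD, n = 7) and mural-like cells 49.7 ± 54.8 (SD, n = 10) CPM, within their SDs of each other. Of all Grem1 UMIs, fibroblast-like cells gave 95.2% in controls and 83.2% in expanded skin, and bulge keratinocyte-like cells 2.11% and 10.4%. Fibroblast markers in bulge keratinocyte-like cells, scaled to Grem1, amount to 1.52 to 19.5 CPM in controls and 0.252 to 12.7 CPM in expanded skin, beside Grem1 levels of 141 to 272 and 67.3 to 227 CPM.

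Grem1 did not pass the test in any class. In fibroblast-like cells it stood at 492, 645, 346, 417 and 512 CPM in controls and 682, 503, 492, 356 and 572 CPM in expanded skin, and the groups overlapped. That gave a log2 fold change of -0.099 ± 0.13 (SE) (by edgeR, adjusted p = 0.607). In bulge keratinocyte-like cells, the 4 control libraries had 232, 141, 272 and 152 CPM (the day 2 round 1 library had too few cells) and the 5 expanded ones 227, 179, 129, 185 and 67.3 CPM. The log2 fold change there was -0.47 ± 0.24 (SE) (by edgeR, adjusted p = 0.319). Dermal papilla-like cells, which could not be tested, had 52.1, 24.4 and 9.16 CPM in 3 control and 56.3, 67, 66.7 and 122 CPM in 4 expanded libraries. In macrophage or monocyte-like cells, 132 CPM in the expanded library of day 1 round 1 stood beside the high fibroblast markers of that library, which scale to 57.8 CPM of Grem1. The other 4 expanded libraries had at most 2.77 CPM against 4.57 to 10.2 CPM in controls. Without that library the log2 fold change went from 0.29 to -2.0 (adjusted p = 0.00837). Fibroblast markers scaled to Grem1 amount to 2.42 to 9.68 CPM in the controls and 0.447 to 3.39 CPM in those 4 expanded libraries, where Grem1 itself was 0.851 to 2.77 CPM. These amounts are of the size of the levels, and their part in the lower value was not tested.

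Bmpr1a (chr14:34410734-34503341, minus strand) encodes a type I receptor through which BMP2 and BMP4 act. Its level varied less between classes than those of the ligands. Mural-like cells had 75.9 ± 13.3 (SD, n = 10) CPM, Schwann-like cells 70.5 ± 14.2 (SD, n = 8), dermal papilla-like cells 67.4 ± 22.2 (SD, n = 7), bulge keratinocyte-like cells 64.5 ± 17.2 (SD, n = 9) and fibroblast-like cells 51.8 ± 7.8 (SD, n = 10) CPM. None of these neighbours differed beyond their SDs. Endothelial-like (1.94 ± 1.37 (n = 10)) and lymphatic endothelial-like cells (1.58 ± 2.55 (n = 10)) were lowest. No class passed the test between the arms. In fibroblast-like cells Bmpr1a stood at 54.4, 59.9, 48.2, 48.9 and 46.9 CPM in controls and 64.8, 61.3, 44.2, 46.5 and 42.6 CPM in expanded skin, with overlap. The log2 fold change was -0.23 ± 0.082 (SE) (by edgeR, adjusted p = 0.0504), and it passed with the replicate block (-0.23, adjusted p = 0.042).

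Bmpr1a in bulge keratinocyte-like cells gave the single call among 75 tests of a difference between days over both arms. Controls had 89.7, 77.4, 49.2 and 52.4 CPM, without a value for day 2 round 1, and expanded libraries 84.7, 76.6, 46.2, 54.1 and 50.3 CPM. Every day 1 library lay above every later one, in both arms. The edgeR adjusted p was 0.0481, where 1.73% of all genes passed. It held in 2 of 9 fits without a library, over adjusted p of 0.0451 to 0.15. It was lost without the control libraries of day 1 round 1, day 2 round 2 and day 4 round 1 and the expanded libraries of day 1 round 2, day 2 round 1, day 2 round 2 and day 4 round 1, after thinning (adjusted p = 0.0872) and with finer clustering, at Leiden resolution 2 (0.0647). Over the classes, at most 1.98% of all genes passed the day term, which was reached in T or innate lymphoid-like cells, with 0.142% in lymphatic endothelial-like, 0.183% in other keratinocyte-like and 0.511% in melanocyte-like cells. Close to the threshold were Bmp4 and Bmpr1a in fibroblast-like cells (adjusted p = 0.0553 and 0.0575; 1.54% of genes passed) and Id2 in bulge keratinocyte-like cells (0.0602).

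Smad6 (chr9:63953076-64022059, minus strand) and Smad7 encode the inhibitory SMADs. SMAD6 acts mainly on BMP receptors and SMAD7 on TGF-beta receptors as well. Smad6 was low throughout, with 13.4 ± 4.5 (SD, n = 7) CPM in proliferating keratinocyte-like, 13.3 ± 4.71 (SD, n = 10) in endothelial-like and 10.8 ± 4.9 (SD, n = 7) in dermal papilla-like cells, which differed by less than their SDs. No UMI of Smad6 was found in mast-like cells. In fibroblast-like cells it stood at 8.38, 6.84, 6.54, 4.54 and 6.41 CPM in controls and 8.94, 6.57, 5.62, 4.28 and 6.96 CPM in expanded skin. The groups overlapped, and the log2 fold change was -0.23 ± 0.19 (SE) (by edgeR, adjusted p = 0.367). It was 0.16 in endothelial-like (adjusted p = 0.728) and 0.24 in bulge keratinocyte-like cells (adjusted p = 0.662).

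Smad7 was highest in T or innate lymphoid-like cells, at 647 ± 104 (SD, n = 10) CPM, then in dermal papilla-like (369 ± 100.3 (n = 7)), mast-like (326 ± 115 (n = 8)), mural-like (175 ± 50.1 (n = 10)) and fibroblast-like cells (151 ± 32.9 (n = 10)). The first step and that from mast-like to mural-like cells were beyond the SDs. Within the T or innate lymphoid-like class, cluster 16, led by the gamma-delta T-cell gene Trdc, had 811 CPM in controls and 927 in expanded skin. The Il17a-led cluster 18 had 286 and 455 CPM (log2 fold change 0.62, edgeR adjusted p = 0.145). For the whole class the change was 0.15 ± 0.12 (SE) (adjusted p = 0.632).

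Smad7 rose in macrophage or monocyte-like cells. Controls had 13.8, 17.1, 18.8, 44.8 and 34.2 CPM and expanded libraries 30.1, 125, 89.1, 72.4 and 74.9 CPM. Expanded libraries were higher in all 5 pairs, and only that of day 1 round 1 lay within the control range. Its fitted log2 fold change was 1.59 ± 0.41 (SE) (by edgeR, adjusted p = 0.0272). It held in 3 of 10 fits without a library, over 1.04 to 1.84 and adjusted p of 0.00926 to 0.0693, and was lost without the control libraries of day 1 round 1, day 1 round 2, day 2 round 1 and day 4 round 1 and the expanded libraries of day 2 round 1, day 2 round 2 and day 4 round 1. T-cell markers in these sums, scaled to Smad7, amount to 0.276 to 3.18 CPM in controls and 0.205 to 2.3 CPM in expanded skin, and their part in the rise was not tested. The effect exceeded that in fibroblast-like cells by 1.41 ± 0.36 (SE) (by edgeR, adjusted p = 0.0305, 11.9% of genes passed). That difference held in 3 of 10 fits without a library, and was lost without the control libraries of day 1 round 1, day 1 round 2, day 2 round 1 and day 4 round 1 and the expanded libraries of day 1 round 2, day 2 round 1 and day 2 round 2. Within cluster 1 alone, which held most of the expanded cells, the Smad7 change was 0.74 (by edgeR, adjusted p = 0.338, 3.53% of genes passed), and that of Id1 0.56 (adjusted p = 0.629).

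Id1 (chr2:152736251-152737410, plus strand) was highest in bulge keratinocyte-like cells, at 1048 ± 149.9 (SD, n = 9) CPM. Proliferating keratinocyte-like cells followed at 445 ± 99.5 (SD, n = 7) CPM, a step beyond the SDs. Mural-like (317 ± 217 (n = 10)), suprabasal keratinocyte-like (288 ± 104 (n = 6)), other keratinocyte-like (270.4 ± 95.8 (n = 10)), endothelial-like (267 ± 74.3 (n = 10)) and lymphatic endothelial-like cells (246 ± 99.4 (n = 10)) did not differ beyond theirs. Fibroblast-like cells had 74.4 ± 37.1 (SD, n = 10) CPM, and T or innate lymphoid-like cells, the lowest, 8.04 ± 4.31 (SD, n = 10) CPM. Of all Id1 UMIs, bulge keratinocyte-like cells gave 34.1% in controls and 51.2% in expanded skin.

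Id1 rose in 4 of the 11 classes tested, 2 of them endothelial. In fibroblast-like cells it stood at 23.6, 38.8, 42.1, 55.4 and 53.3 CPM in controls and 118, 111, 82.5, 131 and 89.3 CPM in expanded skin, with no overlap. In the model this was a log2 fold change of 1.13 ± 0.19 (SE) (by edgeR, adjusted p = 0.00163), and the call held without each library in turn (1.0 to 1.29). The thinned share of fibroblast-like cells with an Id1 UMI was 6.82% in controls and 17.1% in expanded skin (unthinned 18% and 45.4%), against 1.23% and 2.44% in T or innate lymphoid-like cells. All 8 basal keratinocyte markers were detected in fibroblast-like cells, at a sum of 188 to 283 CPM in controls and 232 to 444 CPM in expanded skin. Scaled to Id1 by bulge keratinocyte-like cells they amount to 10 to 13.8 and 8.86 to 22.7 CPM, and their part in the rise was not tested.

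Endothelial-like cells had Id1 at 176, 221, 226, 264 and 167 CPM in controls and 378, 289, 271, 385 and 295 CPM in expanded skin, and lymphatic endothelial-like cells at 226, 137, 171, 189 and 154 CPM and 300.1, 476, 271, 242 and 298 CPM. In both classes every expanded library lay above every control library. Id1 rose by 0.52 ± 0.14 (SE) in endothelial-like (by edgeR, adjusted p = 0.0285) and by 0.77 ± 0.19 (SE) in lymphatic endothelial-like cells (adjusted p = 0.0126). The endothelial-like call held in 4 of 10 fits without a library (0.45 to 0.61, adjusted p of 0.015 to 0.115) and was lost without the control libraries of day 1 round 1, day 1 round 2 and day 4 round 1 and the expanded libraries of day 1 round 1, day 2 round 2 and day 4 round 1. The lymphatic endothelial-like call held in 7 of 10 (0.58 to 0.87, adjusted p of 0.00933 to 0.0701) and was lost without the control libraries of day 1 round 2 and day 4 round 1 and the expanded library of day 4 round 1. Keratinocyte markers scaled to Id1 gave 46 to 53 CPM in control and 20.7 to 45.7 CPM in expanded endothelial-like cells. In lymphatic endothelial-like cells they gave 29.2 to 44 and 19.7 to 44.2 CPM, and their part in either rise was not tested. After thinning, the endothelial-like value was no longer past the threshold (0.44, adjusted p = 0.105). In the largest endothelial-like cluster, number 5, the change was 0.40 ± 0.15 (SE, adjusted p from edgeR = 0.103, 8.04% of genes passed).

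In macrophage or monocyte-like cells Id1 was low, at 3.4, 5.71, 3.36, 14.3 and 5.83 CPM in controls and 23, 26.3, 17.7, 10 and 20.02 CPM in expanded skin. The expanded library was the higher of 4 pairs and the lower of the day 2 round 2 pair, where the control library was the highest of its arm. The change on the log2 scale was 1.42 ± 0.41 (SE) (by edgeR, adjusted p = 0.0367), held in 2 of 10 fits without a library (1.15 to 2.05, adjusted p of 0.00211 to 0.113) and lost without the control libraries of day 1 round 1, day 1 round 2, day 2 round 1 and day 4 round 1 and the expanded libraries of day 1 round 1, day 1 round 2, day 2 round 1 and day 4 round 1. It was also lost with at most 5% mitochondrial UMIs per cell (1.30, adjusted p = 0.0602). Basal keratinocyte markers summed to 65.2 to 139 CPM in controls and 122 to 451 CPM in expanded skin. Scaled to Id1 they amount to 4.48 to 6.73 and 4.7 to 23.1 CPM. On day 1 in both arms, and in the day 4 controls, these amounts were close to the Id1 level. They were lower in the other libraries with a value, such as 4.7 beside 17.7 CPM (expanded, day 2 round 1) and 8.38 beside 20.02 CPM (expanded, day 4). Their part in the rise was not tested.

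Bulge keratinocyte-like cells had Id1 over 878 to 1192 CPM in controls and 829 to 1229 CPM in expanded skin, with overlap and a log2 fold change of 0.095 ± 0.13 (SE) (by edgeR, adjusted p = 0.725). This effect was -1.0 ± 0.22 (SE) relative to that in fibroblast-like cells (by edgeR, adjusted p = 0.0352, 2.09% of genes passed). The difference held in 3 of 9 fits without a library and was lost without the control libraries of day 1 round 1 and day 1 round 2 and the expanded libraries of day 1 round 1, day 1 round 2, day 2 round 1 and day 2 round 2. In suprabasal keratinocyte-like cells, which were not tested, Id1 had 164 to 262 CPM in 3 control and 302 to 429.7 CPM in 3 expanded libraries. The Id1 log2 fold change was 1.61 in melanocyte-like (by edgeR, adjusted p = 0.318), 1.48 in Schwann-like (0.182), 0.60 in T or innate lymphoid-like (0.469), 0.49 in other keratinocyte-like (0.177) and -0.41 in dendritic or Langerhans-like cells (0.636).

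Id1 in mural-like cells differed in direction between days, short of the test threshold in the main model. Controls had 309.9, 295, 296, 307 and 225 CPM and expanded libraries 457, 863, 176, 132 and 108 CPM. On day 1 both expanded libraries lay above all controls, and on days 2 and 4 all 3 lay below them. The test of a day-by-arm difference gave an unadjusted p of 0.00057 and an edgeR adjusted p of 0.272, and with the replicate block an adjusted p of 0.0232. The fit with the block leaves few libraries from which to measure spread, and it fits the single day 4 pair exactly. In the main model 0 of 75 pairs passed and 6 had an unadjusted p under 0.05. The share of all genes that passed was 0.0137% in mural-like, 0.0105% in endothelial-like and 0.383% in melanocyte-like cells, and 0 in the other classes. The block also called Id1 in melanocyte-like (adjusted p = 0.0263) and Grem1 in mural-like cells (0.0466).

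Id2 (chr12:25093799-25097140, minus strand) was highest in immune cells, where ID2 is known for its role in innate lymphoid and dendritic cells. T or innate lymphoid-like cells had 844 ± 201 (SD, n = 10) CPM, dendritic or Langerhans-like cells 812 ± 159.9 (SD, n = 10), mast-like cells 625 ± 222 (SD, n = 8), macrophage or monocyte-like cells 605 ± 241 (SD, n = 10) and bulge keratinocyte-like cells 600.3 ± 158 (SD, n = 9) CPM. These neighbours did not differ beyond their SDs. Endothelial-like cells were lowest, at 46.4 ± 12.4 (SD, n = 10) CPM. Id2 passed the test in no class. In fibroblast-like cells it had 158, 86.2, 116, 118 and 108 CPM in controls and 172, 115, 81.1, 84.4 and 100.3 CPM in expanded skin (log2 fold change -0.36 ± 0.20 (SE), edgeR adjusted p = 0.195), with overlap. In mural-like cells Id2 had 273, 182, 238, 73.4 and 127 CPM in controls and 207, 376, 49.8, 25.8 and 24.7 CPM in expanded skin. The expanded libraries of days 2 and 4 lay below all controls and those of day 1 did not, as for Id1, and the log2 fold change over all days was -1.05 ± 0.63 (SE) (by edgeR, adjusted p = 0.296).

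Id3 (chr4:136143497-136145755, plus strand) was highest in mural-like cells, at 1500.2 ± 572 (SD, n = 10) CPM, and in bulge keratinocyte-like cells, at 1367 ± 278 (SD, n = 9) CPM, within their SDs of each other. Lymphatic endothelial-like (623 ± 202 (n = 10)), proliferating keratinocyte-like (609.8 ± 216 (n = 7)) and fibroblast-like cells (599.5 ± 113 (n = 10)) followed, and dendritic or Langerhans-like cells were lowest at 34.4 ± 18.8 (SD, n = 10) CPM. In mural-like cells Id3 had 1771, 2205, 1117, 1519.8 and 1857 CPM in controls and 1911, 2196, 797, 876 and 753 CPM in expanded skin. The arms overlapped on day 1, and the expanded libraries of days 2 and 4 lay below every control. Id3 fell, with a log2 fold change of -0.61 ± 0.19 (SE) (by edgeR, adjusted p = 0.0329). The call held in 4 of 10 fits without a library (-0.73 to -0.40, adjusted p of 0.0193 to 0.174) and was lost without the control libraries of day 1 round 2, day 2 round 2 and day 4 round 1 and the expanded libraries of day 2 round 1, day 2 round 2 and day 4 round 1, and with at most 5% mitochondrial UMIs (-0.55, adjusted p = 0.0873). The day-by-arm test of Id3 gave an adjusted p of 0.682.

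Melanocyte-like cells gave the call for Id3 in the other direction. Without day 1 round 1, where they were too few, the 4 control libraries had 226, 418, 438 and 282 CPM and the 4 expanded ones 675, 637, 512 and 854 CPM. No expanded library overlapped the controls. Id3 rose by 1.04 ± 0.23 (SE) (by edgeR, adjusted p = 0.0345). That held in 3 of 8 fits without a library (0.78 to 1.27, adjusted p of 0.00525 to 0.428) and was lost without the control libraries of day 1 round 2 and day 4 round 1 and the expanded libraries of day 1 round 2, day 2 round 1 and day 4 round 1. Keratinocyte markers summed to 533 to 1306 CPM in control and 415 to 3704 CPM in expanded melanocyte-like cells, and scaled to Id3 over 3 control and 4 expanded libraries they amount to 77.3 to 84.1 and 24.6 to 252 CPM. Their part in the rise was not tested. In fibroblast-like cells Id3 had 392, 575, 553, 593 and 667 CPM in controls and 735, 792, 515, 552 and 621 CPM in expanded skin, with overlap and a log2 fold change of -0.017 ± 0.14 (SE) (adjusted p = 0.942). The difference between the melanocyte-like and fibroblast-like effects was 1.12 ± 0.27 (SE) (by edgeR, adjusted p = 0.0297, 1.04% of genes passed), and held in 6 of 8 fits without a library, lost without the control libraries of day 1 round 2 and day 4 round 1.

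Differences from the fibroblast-like effect were tested for 100 gene-by-class pairs, of which 6 passed and 22 had an unadjusted p under 0.05. None passed in endothelial-like (5.58% of all genes did), dendritic or Langerhans-like (3.71%), lymphatic endothelial-like (2.47%), T or innate lymphoid-like (4.71%) and Schwann-like cells (0.773%). Beside the 4 already given, both others concerned Bmp2, which fell further than in fibroblast-like cells. The difference was -3.47 ± 0.96 (SE) in macrophage or monocyte-like cells (by edgeR, adjusted p = 0.0435) and -1.10 ± 0.30 (SE) in mural-like cells (adjusted p = 0.0408, 6.7% of genes passed). They held in 1 and 4 of 10 fits without a library. The first was lost without the control libraries of day 1 round 1, day 1 round 2, day 2 round 1, day 2 round 2 and day 4 round 1 and the expanded libraries of day 1 round 2, day 2 round 1, day 2 round 2 and day 4 round 1, and the second without the control libraries of day 1 round 2, day 2 round 2 and day 4 round 1 and the expanded libraries of day 1 round 2, day 2 round 1 and day 2 round 2. Without the filter on low counts 4 of the 6 differences missed the threshold. These were Bmp2 in macrophage or monocyte-like (-3.43, adjusted p = 0.121) and mural-like cells (-1.06, adjusted p = 0.0749), Smad7 in macrophage or monocyte-like cells (1.46, adjusted p = 0.0634) and Id1 in bulge keratinocyte-like cells (-1.02, adjusted p = 0.0563). The Bmp7 difference missed it after thinning (-0.91, adjusted p = 0.213) and at Leiden resolution 2 (-0.71, adjusted p = 0.0785).

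Fibroblast-like cells were made of 10 clusters, and different clusters held most of the class in the arms. Cluster 0, led by Mirg and Klk1, held 32.9% of control and 3.74% of expanded fibroblast-like cells. Cluster 8, led by Hapln1 and Prok2, held 7.06% and 27.8%, cluster 11 (Il19, Tnc) 7.1% and 15.4%, and cluster 20 (Mme, Cadps) 3.73% and 9.53%. The genes differed between clusters. Id1 had 6.72 CPM in control cells of cluster 0, 113 in cluster 8 and 160.0 in cluster 21 (Acan, Lrrc15). Grem1 had 1145 CPM in cluster 6 (Igfbp2, Scg3) but 16 in cluster 8, 11.1 in cluster 28 (Smim41, Apod) and 2.5 in cluster 10 (Fmod, Cck). The arms were therefore compared again within the 6 clusters with enough libraries, a step added after the class results were seen.

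**Figure D3:**
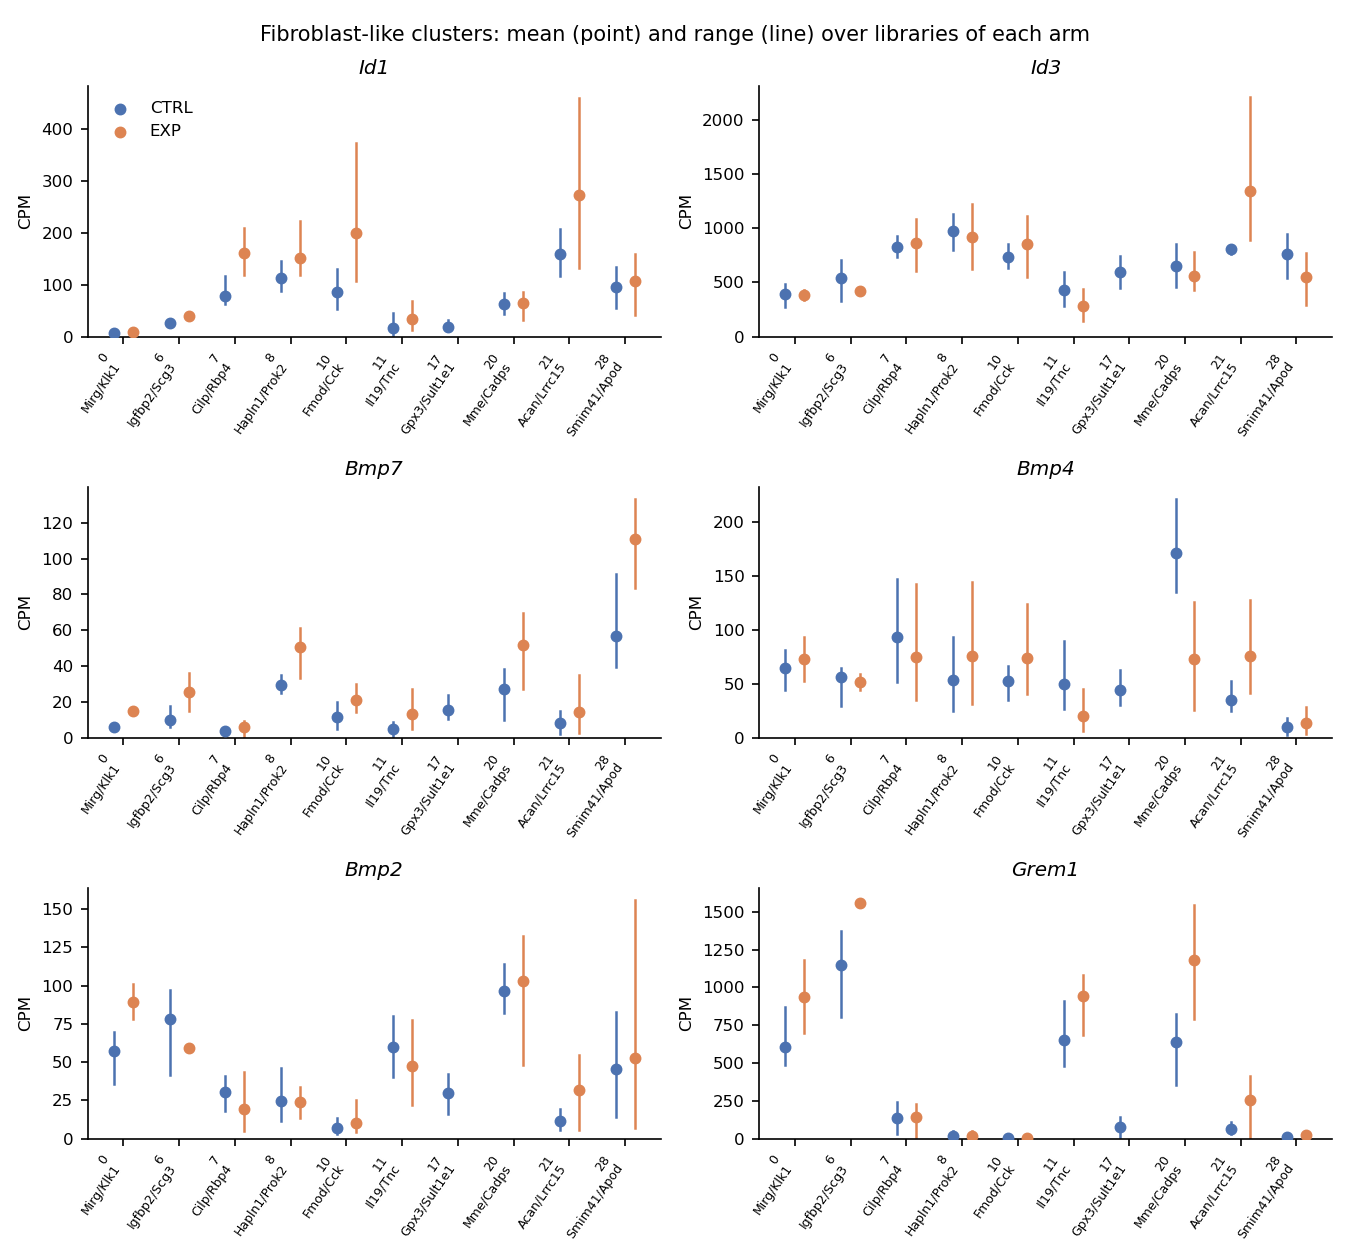
CPM of Id1, Id3, Bmp7, Bmp4, Bmp2 and Grem1 in the 10 fibroblast-like clusters, named by number and leading genes, for control (blue) and expanded libraries (orange), as the mean over libraries (point) and the range (line). Cluster 17 had no expanded library with 20 cells. In cluster 20 expanded cells had higher Grem1 (1181 against 641 CPM) and lower Bmp4 (73 against 172 CPM).

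Id1 rose in cluster 7, led by Cilp and Rbp4, from 78.6 (range 63.3 to 117, n = 5) to 161 (range 119 to 209, n = 5) CPM. That gave a log2 fold change of 1.01 ± 0.18 (SE, adjusted p from edgeR = 0.00217), the sole call among 9 genes where 14.8% of all genes passed. Id1 also rose in cluster 10, by 1.19 ± 0.25 (SE, adjusted p from edgeR = 0.0352), 1 of 7 tested against 2.65%. It did not pass in clusters 8 (0.36 (adjusted p = 0.222)), 11 (0.75 (adjusted p = 0.435)), 20 (-0.060 (adjusted p = 0.877)) and 28 (0.0078 (adjusted p = 0.993)). In cluster 8, 2 of 9 genes rose against 9.51%: Bmp7 by 0.78 (by edgeR, adjusted p = 0.0152) and Id2 by 0.75 (0.0070). In cluster 28 none of 7 passed by edgeR's test, against 8.88%, and 3 had an unadjusted p under 0.05. These were Bmp7 (0.85 (adjusted p = 0.0505)), Id3 (-0.68 (adjusted p = 0.0527)) and Smad7 (0.89 (adjusted p = 0.0509)). Bmp7 did not pass in clusters 10 (0.87 (adjusted p = 0.14)) and 11 (0.99 (adjusted p = 0.0916)) either, and was too sparse for a test in cluster 7.

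Bmp4 fell in clusters 11 and 20. In cluster 11, 4 of 10 genes fell against 28.9% of all genes: Bmp4 by 1.4 (by edgeR, adjusted p = 0.00839), Id3 by 0.82 (0.0333), Bmpr1a by 0.62 (0.0108) and Bmp2 by 0.56 (0.0276). Of this cluster's leading genes, Il19, Tnc and Saa3 led a cluster of 80.2% expanded cells at Leiden resolution 2. Ccl19 was among the leading genes of clusters with 4.46% and 37.8% expanded cells. The part of a mix of cells within cluster 11 in these falls was not tested. In cluster 20, 3 of 10 passed against 14.6%. Bmp4 fell there from 172 (range 135 to 222, n = 5) to 73 (range 25.1 to 126, n = 5) CPM, a log2 fold change of -1.43 ± 0.32 (SE, adjusted p = 0.0165). Grem1 rose from 641 (range 353 to 824, n = 5) to 1181 (range 791 to 1547, n = 5) CPM, by 0.83 ± 0.22 (SE, adjusted p = 0.0235). Bmp7 rose by 0.76 (adjusted p = 0.0331). Promoter stretches of 6 of the 10 genes were in the RefSeq table, and GGCGCC was also found for Bmpr1a and Id2 and not for Id3 and Smad6. Bmpr1a, with these letters, fell in cluster 11 together with Bmp4 and Id3, without them. A link between these letters and the changes was not tested.

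The wider pathway was described through 46 further genes of the same roles. In fibroblast-like cells 6 rose and 10 fell of 34 tested, which is 47.1% against 30.9% of all genes. Their median log2 fold change was -0.22, against 0.017 over all genes. By role, 1 rose and 2 fell of 4 ligand genes, 2 rose and 2 fell of 8 receptor and coreceptor genes, 3 rose and 5 fell of 13 antagonist and modulator genes, 0 rose and 1 fell of 5 transducer genes and 0 rose and 0 fell of 4 target genes. Among ligands Bmp5 fell by 3.14 ± 0.44 (SE) (by edgeR, adjusted p = 0.000648) and Gdf10 by 2.95 ± 0.68 (SE) (0.0125), while Bmp3, which encodes a ligand that counters other BMPs, rose by 1.46 ± 0.26 (SE) (0.00215).

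Secreted antagonists moved both ways. Fst, which encodes follistatin, a binder of activins and some BMPs, had 80.9 to 203 CPM in control and 300.0 to 962 CPM in expanded fibroblast-like cells, without overlap. It rose by 2.06 ± 0.33 (SE) (by edgeR, adjusted p = 0.00211). Sostdc1 rose by 1.31 ± 0.43 (SE) (0.0388). Chrdl1 fell by 2.38 ± 0.46 (SE) (0.00442), Chrd by 1.05 ± 0.24 (SE) (0.0074) and Twsg1, whose product works with chordin, by 0.85 ± 0.14 (SE) (0.00112). The Fst rise was present within clusters 7 (1.69 (adjusted p = 0.000599)), 8 (2.40 (adjusted p = 0.0070)), 11 (2.06 (adjusted p = 0.00388)) and 20 (2.79 (adjusted p = 4.32e-05)), and was 1.61 (adjusted p = 0.0523) in cluster 10.

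**Figure D4:**
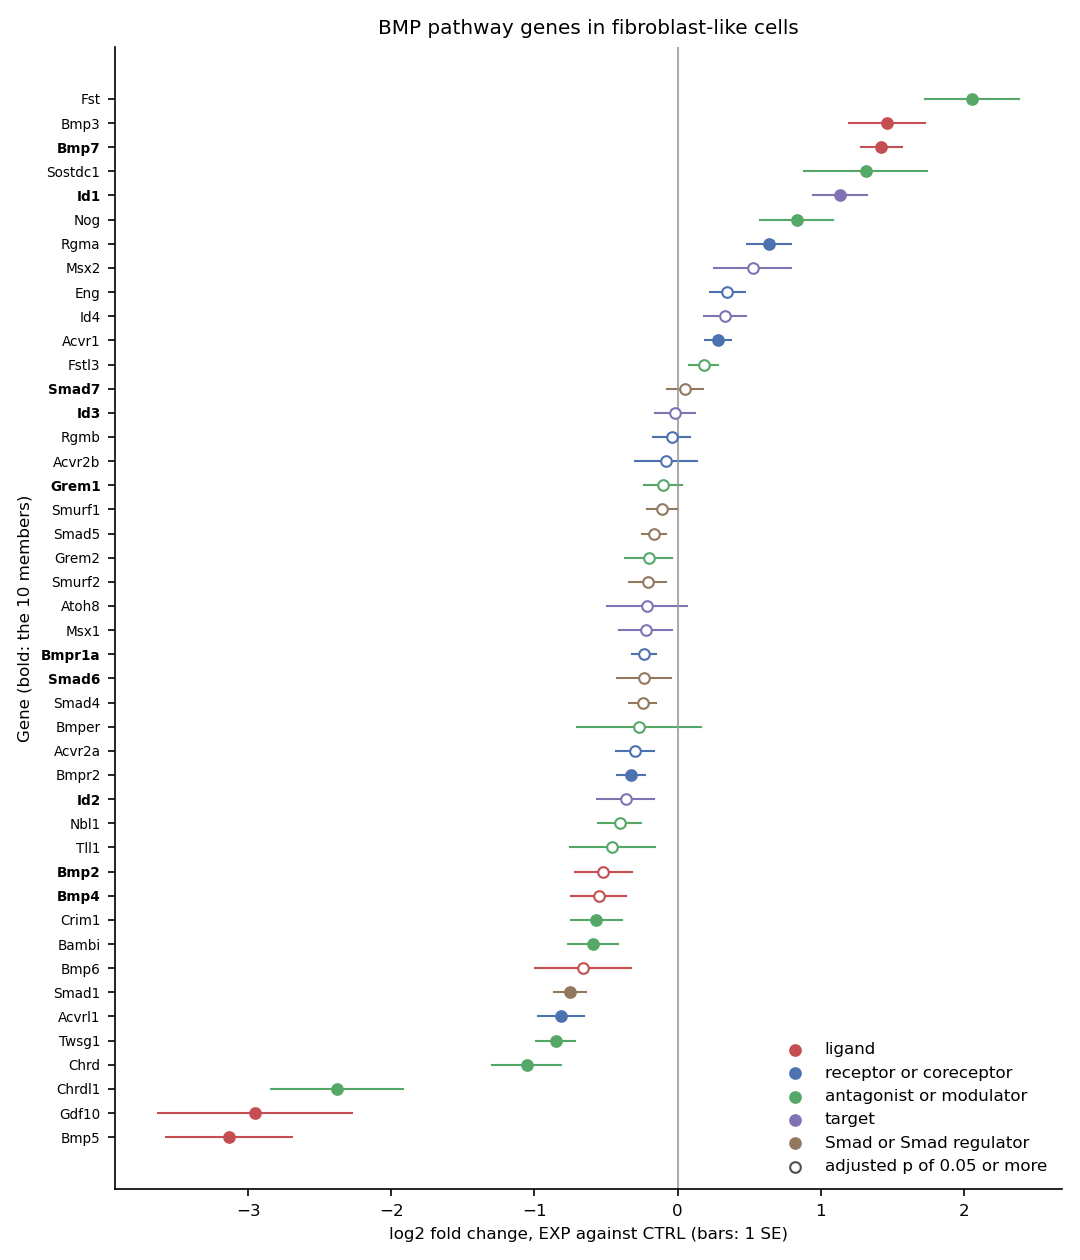
Log2 fold change (expanded against control, with ±1 SE) of the 10 genes and the other pathway genes tested in fibroblast-like cells, sorted by fold change and coloured by role, with the 10 in bold. Filled points have an edgeR adjusted p below 0.05, and they lie on both sides of 0, from Bmp5 (-3.14) to Fst (2.06).

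In macrophage or monocyte-like cells 5 of 16 further pathway genes passed, against 20.7% of all genes: Fst rose (2.29), and Crim1 (-2.84), Eng (-1.07), Smad1 (-0.71) and Smad5 (-0.66) fell. Fibroblast markers reached 5742 CPM in the expanded library of day 1 round 1 of this class, and they were not scaled to Fst. Cluster 1 held 27.7% of its control and 93.3% of its expanded cells. The part of either in these changes was not tested. Mural-like cells had 4 of 23 (17.4% against 19.1%): Bambi, which encodes a decoy receptor and is itself a target (-1.47), Crim1 (-1.15) and Bmpr2 (-0.54) fell and Eng rose (0.62). In other keratinocyte-like cells 4 of 19 fell (21.1% against 18.3%): Acvr1 (-0.71), Smad1 (-0.68), Twsg1 (-0.63) and Fst (-0.53). Bambi also fell in endothelial-like (-0.59) and lymphatic endothelial-like cells (-0.79), 2 of the 4 classes in which Id1 rose. In endothelial-like cells Msx1 (-0.89) and in lymphatic endothelial-like cells Tll1 (-1.54) and Bmpr2 (-0.51) fell too, making 2 of 21 and 3 of 16, or 9.52% and 18.8% against 12.1% and 11.9% of all genes. The shares in mural-like, other keratinocyte-like and endothelial-like cells were near those of all genes. A single gene fell in dendritic or Langerhans-like cells (Acvrl1, -1.45) and in T or innate lymphoid-like cells (Nbl1, -1.55). No further pathway gene passed in bulge keratinocyte-like (27 tested), Schwann-like (18) or melanocyte-like cells (16) by edgeR's test.

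The genes most like each of the 10 in their level across 17 classes were found by Pearson's r of log2(CPM + 1), as a description in which the classes share libraries. For the ligands they were Abcc5 (r = 0.80), Cry2 (r = 0.80) and L3mbtl3 (r = 0.78) for Bmp2, Rspo3 (r = 0.80), Lamc3 (r = 0.79) and Dpt (r = 0.78) for Bmp4 and Bcl11b (r = 0.88), Tpbg (r = 0.86) and Prlr (r = 0.86) for Bmp7. Rspo3 is one of the markers by which dermal papilla-like cells were named. Grem1 was most like Clec11a (r = 0.89), Ism1 (r = 0.85) and Fbln1 (r = 0.84), and Bmpr1a most like Fat1 (r = 0.88), Ncs1 (r = 0.82) and Efs (r = 0.79). The inhibitory Smad genes had Ankrd29 (r = 0.82), Maged1 (r = 0.80) and Fkbp11 (r = 0.78) for Smad6 and Socs1 (r = 0.85), Fam53c (r = 0.80) and Chd3 (r = 0.80) for Smad7. For the targets they were Bok (r = 0.85), Actn1 (r = 0.83) and Hspb8 (r = 0.83) for Id1, Arl4c (r = 0.88), Lrch4 (r = 0.81) and Il7r (r = 0.80) for Id2, and Adamts1 (r = 0.89), Ccn2 (r = 0.89) and Hspb1 (r = 0.87) for Id3.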

How the data were processed

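The deposited matrices hold UMI counts that the authors obtained with Cell Ranger 6.1.2 on mm10, per the submitters' processing notes. The annotation release is not given in the sources used here. Libraries were 10x Genomics 3′ libraries, per the labels' protocols. Of 55174 barcodes, 47251 passed limits of 200 genes, 500 UMIs and 10% mitochondrial UMIs. The mitochondrial limit alone was exceeded by 8.6% to 24.4% of barcodes. Doublets were removed with Scrublet and, in the hashed libraries, with HTODemux (Seurat 5.3.0, quantile 0.99), 1.05% to 5.09% per library. Cells were clustered with scanpy 1.11.5 (2000 variable genes without the pathway genes, 30 components, 15 neighbours, Leiden resolution 1), and clusters were named from listed markers, so class names are rebuilt and not the authors'. Counts summed per class and library were tested with edgeR 4.0.16 (R 4.3.3; TMM, filterByExpr, robust quasi-likelihood, day and arm) with Benjamini-Hochberg adjustment over all genes of a class. On simulated counts with 200 changed genes, a log2 fold change of 1 was recovered in 41% to 75% of cases, depending on the class.

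Scaled amounts of RNA from another cell type are its markers' summed CPM in a class times the ratio of the gene to those markers in that cell type of the same library. Counting intervals and limits cover counting error only. The sequencing round is a labelled batch shared by the libraries of both arms, so the day-and-round pair was the replicate block. Paired libraries' deviations from the mean of their arm correlated by -0.13 to 0.51 over 52 class-by-pair values, 42 of them above 0.1. Day was not removed from these deviations, so the values include differences between days and do not measure a pair effect beyond day. Alternatives were the block, DESeq2 1.42.0, no filter on low counts, thinning to 2000 UMIs, at least 50 cells, at most 5% mitochondrial UMIs, Leiden resolution 2, mice as units, single clusters and leaving out each library. The 10 genes and all lists were chosen with earlier results of these data known. Named were the 10 genes wherever tested, at most 8 called pathway genes per class by size of change, and the 3 genes most alike each of the 10. Hashtag lists were used to assign cells to mice only. The title of the day 1 round 2 control mRNA sample says Hashing and that of its hashing sample says skin. The contents of each decided which was taken as the mRNA library.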

Additional observations from a re-analysis of the deposited data

Results flagged for a closer look

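A library lay far from the others of its arm in 15 of 150 groups of 4 or 5 libraries, 10.0% where chance gives about 5%, by the gap to the nearest library as a share of the range. In bulge keratinocyte-like cells, Bmp2 was highest in the control library of day 4 round 1 (85.1 CPM, nearest 55.8). In endothelial-like cells, Smad7 was lowest in the control library of day 2 round 1 (81 CPM, nearest 109.5). In lymphatic endothelial-like cells, Id1 was highest in the expanded library of day 1 round 2 (476 CPM, nearest 300.1), Id3 was highest in the expanded library of day 1 round 2 (1113 CPM, nearest 604) and Id2 was highest in the control library of day 1 round 1 (133 CPM, nearest 83.3). In macrophage or monocyte-like cells, Grem1 was highest in the expanded library of day 1 round 1 (132 CPM, nearest 2.77), Bmp2 was highest in the expanded library of day 1 round 1 (23.5 CPM, nearest 1.3), Id1 was highest in the control library of day 2 round 2 (14.3 CPM, nearest 5.83) and Id2 was highest in the expanded library of day 1 round 2 (1175 CPM, nearest 643). In mural-like cells, Id1 was lowest in the control library of day 4 round 1 (225 CPM, nearest 295). In other keratinocyte-like cells, Grem1 was highest in the control library of day 1 round 1 (39 CPM, nearest 11.7) and Bmp7 was highest in the control library of day 2 round 2 (50.1 CPM, nearest 30.5). In Schwann-like cells, Id1 was lowest in the control library of day 4 round 1 (11.9 CPM, nearest 25.4) and Smad7 was lowest in the expanded library of day 2 round 2 (17.9 CPM, nearest 62.9). In T or innate lymphoid-like cells, Id1 was highest in the expanded library of day 1 round 2 (19.2 CPM, nearest 8.73). Leaving out the expanded library of day 1 round 1 of the macrophage or monocyte-like sums also gave Smad6 a log2 fold change of 1.09 (by edgeR, adjusted p = 0.0475).

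The change with expansion differed from that in fibroblast-like cells, by edgeR's test of the class-by-arm term, in 6 cases. The log2 differences were -1.0 for Id1 in bulge keratinocyte-like cells (adjusted p = 0.0352), -3.47 for Bmp2 in macrophage or monocyte-like cells (adjusted p = 0.0435), 1.41 for Smad7 in macrophage or monocyte-like cells (adjusted p = 0.0305), 1.12 for Id3 in melanocyte-like cells (adjusted p = 0.0297), -1.10 for Bmp2 in mural-like cells (adjusted p = 0.0408) and -0.86 for Bmp7 in other keratinocyte-like cells (adjusted p = 0.032).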

How the results depend on the processing

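Counts of the 10 genes called changed with the processing as follows. The shares of all genes that passed in these settings are not given here, so the counts cannot be set against them. Without the filter on low counts, 1 was called in bulge keratinocyte-like cells, 5 in fibroblast-like, 2 in lymphatic endothelial-like, 2 in melanocyte-like, 7 in other keratinocyte-like, 2 in Schwann-like and 1 in T or innate lymphoid-like cells, with 28 day terms and 4 day-by-arm terms. The replicate block called 5 in fibroblast-like, 2 in lymphatic endothelial-like and 2 in other keratinocyte-like cells, and 3 day-by-arm terms, and changed no other call. DESeq2 called 5 in fibroblast-like and 2 in melanocyte-like cells, and mice as units called 6 in fibroblast-like cells. The fit with mice as units left out the day 1 round 1 libraries, which were not hashed, and cells without an assigned mouse. It used the replicate block in place of day. Mice of the same pool share a library and are not independent, so its count is no firmer than the others. Thinning left 0 in endothelial-like and other keratinocyte-like cells, in the second because Bmp4 no longer passed the low-count filter and was not tested, and 0 day terms. At most 5% mitochondrial UMIs gave 1 in mural-like and 2 in lymphatic endothelial-like cells, and at least 50 cells gave 2 in lymphatic endothelial-like cells. Leiden resolution 2 gave 0 day terms and 10 differences from fibroblast-like cells. The single calls lost in these settings are given beside their results, and the cause was not tested. Leaving out each library gave 2 to 4 calls in fibroblast-like, 0 to 4 in macrophage or monocyte-like, 1 to 2 in mural-like, 1 to 2 in other keratinocyte-like, 0 to 2 in lymphatic endothelial-like, 0 to 2 in melanocyte-like, 0 to 1 in endothelial-like and 0 to 1 in Schwann-like cells. It gave 0 to 0 in T or innate lymphoid-like, bulge keratinocyte-like and dendritic or Langerhans-like cells, 0 to 4 day terms, 0 to 1 day-by-arm terms and 1 to 11 differences. Of single calls, 1 turned its direction: Id1 of fibroblast-like cells was -0.060 within cluster 20, and the cause was not tested. Mice as units could not be fitted in 8 classes, nor melanocyte-like cells thinned, at 50 cells or at 5% mitochondrial UMIs, nor Schwann-like cells at 50 cells. At the depth of these libraries, Smad6 and most genes below a few CPM were too sparse for a test in most classes.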
